A study of Mus musculus with 9 samples.

Results

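The genes described here encode 4 classes of enzyme that process drugs, dietary chemicals and steroids: cytochromes P450 of families CYP1 to CYP4, UDP-glucuronosyltransferases of families UGT1 and UGT2, glutathione S-transferases (GSTs), and sulfotransferases (SULTs). They were chosen by the form of their gene symbols, which gave 134 of the 46517 genes in the expression tables, made up of 75 CYP, 19 UGT, 21 GST and 19 SULT genes. The samples were organoids grown in Matrigel from duodenal crypts of wild-type C57BL/6 mice, whose age is not given in the sources used here, under low oxygen in L-WRN conditioned medium, a source of Wnt3a, R-spondin and noggin, with inhibitors of ROCK and of the TGF-beta receptor. Single cells from these cultures were transduced with an adenovirus at 50 particles per cell and RNA was taken about 72 h later. Ad-GFP, the control, carried a green fluorescent protein under the CMV promoter, Ad-hHIF1 carried human HIF1, and Ad-hHIF2 carried human HIF2, both HIFs with proline-to-alanine changes that keep them from being degraded by way of VHL. Each group had 3 samples, numbered 1, 3 and 4, so all 9 samples had been exposed to an adenovirus and none was untransduced, and expression was forced from a vector rather than from the native HIF genes. The question was which of these genes the organoids express and whether stable HIF2 or HIF1 changed them.

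CYPs insert oxygen into a lipid-soluble substrate, with electrons passed on by P450 reductase. UGTs, GSTs and SULTs then attach glucuronic acid, glutathione or sulfate, which makes the product easier to dissolve, and transporters carry it out of the cell. Many of these genes are switched on by receptors that sense foreign chemicals, among them the aryl hydrocarbon receptor AHR, which shares its partner ARNT with both HIFs. The duodenal lining is the first tissue that swallowed compounds meet, and mature absorptive cells of the villus are the site usually associated with high activity of these enzymes.

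Values are given as CPM, the reads of a gene relative to all reads of its library, scaled between libraries with TMM factors, and always in the order of replicates 1, 3 and 4. Total expected counts ran from 21722618 to 51119041 a library, so 3 counts correspond to 0.0588 to 0.150 CPM, a floor that covers counting error only. A pair of libraries stood apart. A pair of satellite-like transcripts, Gm10800 and Gm26870, took 15.96% of the counts of Ad-hHIF1 replicate 3 and 0.433% to 4.28% of the others. On the deposited TPM scale the median expressed gene of Ad-hHIF2 replicate 1 lay 0.81 log2 units above the mean of the 9 libraries, against values between -0.23 and 0.00 in the other 8, a shift that was absent from CPM with TMM factors (0.02). Mouse Epas1, which encodes HIF2 alpha, was at 1.64, 1.47 and 2.20 CPM in Ad-GFP and 758, 604 and 654 in Ad-hHIF2, and Hif1a was at 198, 210.3 and 251 CPM in Ad-GFP and 309, 319 and 299 in Ad-hHIF1 (log2 fold change 0.49, adjusted p = 0.486 by edgeR). All 3 Ad-hHIF1 samples lay above those of Ad-GFP for Hif1a, and DESeq2 (adjusted p = 5.76e-05) and edgeR without a filter on low counts called it. Both transgenes are human, so these reads check the labels only as far as human sequence was assigned to the mouse gene. Epithelial genes were abundant in every group, with a sum over Epcam, Cdh1, Krt8, Krt18, Krt19 and Krt20 of 3243 to 3765 CPM. Of 15 genes of absorptive cells, 4 had a mean of at least 1 CPM over all samples and 3 had at most 3 counts in every sample. Among the low ones, Alpi, Sis and Fabp1 did not exceed 0.259, 0.219 and 0.0273 CPM in any sample. The 15 absorptive cell genes summed to 467 to 479 CPM in Ad-GFP, 360 to 384 in Ad-hHIF2 and 469 to 500 in Ad-hHIF1, nearly all of it Apob. Of the 7 tested with HIF2, 1 rose, 1 fell and 5 did not pass, with a median log2 fold change of 0.01. Apob fell (log2 -0.36, adjusted p = 0.00787). Apoa4, the gene counted as risen, went from at most 0.0277 CPM in an Ad-GFP sample to 2.22, 2.81 and 2.46 CPM in Ad-hHIF2. It entered the test through the group where it was high, so its p-value is not given. The sum of 7 goblet cell genes was 6.04 to 9.35 CPM in Ad-GFP, 2.70 to 2.81 in Ad-hHIF2 and 4.45 to 6.17 in Ad-hHIF1. Of these, 2 had a mean of at least 1 CPM and 3 at most 3 counts in every sample, with Tff3 at 0 in every sample of Ad-GFP and Ad-hHIF2. Only 2 were tested with HIF2, of which 1 fell and 1 did not pass. The sum of 7 stem and crypt genes, nearly all of it Slc12a2, was 77.2 to 84.0 CPM in Ad-GFP, 96.7 to 104.6 in Ad-hHIF2 and 78.7 to 80.6 in Ad-hHIF1. With HIF2, 3 of them were tested, of which 1 rose and 2 did not pass. The part of these cell type genes in the results below was not tested. The 6 hepatocyte genes summed to at most 0.416 CPM.

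Of the 134 genes, 35 (26.1%) were expressed at a level that passed the count filter over all 9 samples, against 15556 of 46517 genes (33.4%) in the whole table. These were 15 of 21 GST genes, 13 of 75 CYP genes, 4 of 19 SULT genes and 3 of 19 UGT genes. In 32 genes no read was counted in any sample, 58 had at most 3 counts in every sample, and 10 reached a mean TPM of 1 in a group. That TPM threshold was a high one here, since 5 short RNA genes held 33.1% to 36.6% of the TPM of a library. Gstp1, for instance, had a mean TPM of 34.0 beside 239 CPM per kilobase of transcript. Expression was unevenly spread within each class. The CYP2 family, the largest, had 5 of its 48 members expressed and the CYP4 family 6 of 17, whereas CYP1 had 1 of 3 and CYP3 had 1 of 7. Of the GSTs, both pi, both omega and 5 of 7 mu class genes passed, together with 2 of 4 alpha class genes. None of the 3 Ugt2a genes passed, nor did 6 of the 7 Ugt2b genes.

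Of 9 well known inducible genes, Gstp1, Gsta1, Cyp1b1, Cyp3a13 and Sult2b1 passed the filter and are described below, while Cyp1a1, Cyp3a11, Ugt1a1 and Sult1a1 were near or below the limit of detection. Cyp1a1, the classic AHR target, had between 0 and 9 counts a sample, and Cyp1a2, named after its values were seen, had none. Cyp3a11, the main PXR-inducible mouse CYP3A gene, had 8 and 10 counts in Ad-GFP replicates 3 and 4, 13 and 3 in Ad-hHIF1 replicates 3 and 4, and 0 in the remaining 5 samples, including all 3 of Ad-hHIF2. Ugt1a1, which glucuronidates bilirubin, had at most 12.6 expected counts, and Sult1a1, a phenol sulfotransferase, at most 9. A count of 0 in a library limits a gene only to below its 3-count level. These genes did not pass the filter, so differences between groups were not tested for them in the main fits.

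**Figure D1:**
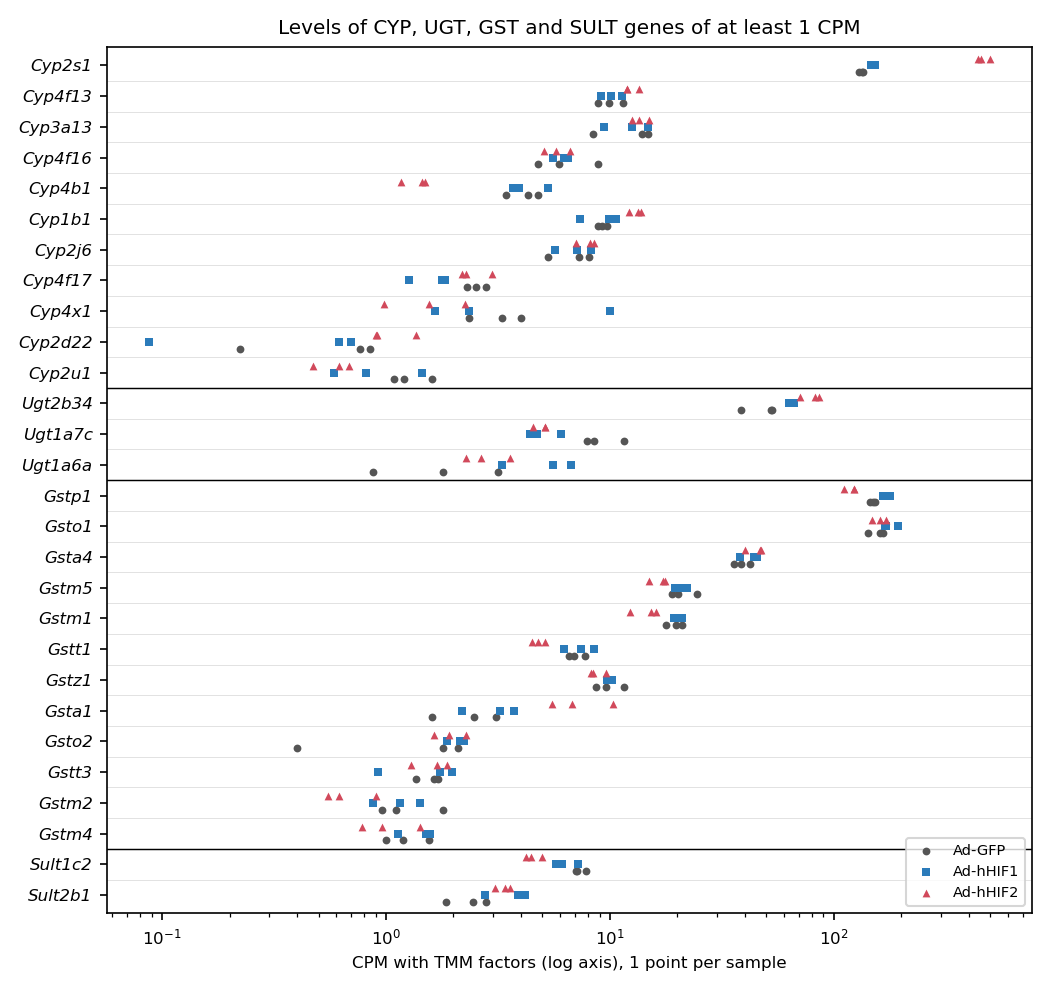
Level of the 28 CYP, UGT, GST and SULT genes whose mean reached 1 CPM in a group, 1 point per sample on a log axis of CPM with TMM factors, grouped by class and ordered within a class by level per kilobase. Cyp2s1, Gsta1 and Cyp4b1 are the genes whose 3 Ad-hHIF2 samples (triangles) lie farthest from those of Ad-GFP (circles) and Ad-hHIF1 (squares).

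Ranked per kilobase of effective transcript length, the scale on which genes can be compared, the highest mean levels over all samples were those of Gstp1 (239 CPM per kb), Gsto1 (160.4), Cyp2s1 (95.3), Gsta4 (51.6), Gstm5 (26.6), Gstm1 (23.9) and Ugt2b34 (21.9). The other genes lay at 8.18 or less. The order of the group means was not the same throughout: in Ad-hHIF2, Cyp2s1 (178) stood above Gsto1 (155) and Ugt2b34 (27.2) above Gstm5 (22.01) and Gstm1 (17.7). Within a class, a single gene could hold most of the reads. Cyp2s1 took 69.1% of the reads of all 75 CYP genes in Ad-GFP, 71.5% in Ad-hHIF1 and 88.2% in Ad-hHIF2. Ugt2b34 took 79.9%, 85.1% and 90.3% of the UGT reads in the same 3 groups.

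Ad-hHIF2 changed 11 of the 35 genes tested against Ad-GFP. The filter was run on the 6 samples of this comparison, so these 35 held Ugt2b35 in place of Sult1b1 among those counted as expressed above. Cyp2s1, Gsta1, Ugt2b34 and Cyp1b1 rose, while Cyp4b1, Cyp2u1, Ugt1a7c, Sult1c2, Gstt1, Gstm1 and Gstp1 fell. Past 2-fold were Cyp2s1 and Gsta1 upward and Cyp4b1 and Cyp2u1 downward. The 11 genes called by edgeR at an adjusted p below 0.05 were 31.4% of those tested, beside 29.5% of all 14987 genes tested, so the share of changed genes was near the background. By direction, 4 of 35 were higher and 7 of 35 lower, beside 15.9% and 13.6% of all genes. Together with a 2-fold change, 4 of 35 were called, beside 6.73% of all genes. The 3 values of each group did not overlap in 18 of the 35 genes, 8 higher and 10 lower, beside 45.8% of all genes. The median log2 fold change was 0.01 over the 35 genes and -0.01 over all genes. The balance of directions differed with limma on TPM, a change of test and scale at once. On log2(TPM + 1) 4 members were higher and 1 lower, and on log2(TPM + 0.1) 4 and 0. The share of higher genes among all called genes went from 53.9% to 80.6% and 81.1%. On those 2 scales the median of all genes moved to 0.12 and 0.30, and they include the shifted library Ad-hHIF2 replicate 1. The calls of Cyp1b1, Cyp2u1, Ugt1a7c, Sult1c2, Gstt1, Gstm1 and Gstp1 were lost on both scales and that of Cyp4b1 on log2(TPM + 0.1). On log2(TPM + 0.1) the log2 fold change of Cyp1b1 was 0.73, that of Cyp4b1 -0.85 and that of Ugt1a7c -0.31, or 0.42, -1.16 and -0.61 relative to the median of all genes. Those of Cyp2u1, Sult1c2, Gstt1 and Gstm1 lay between -0.20 and -0.02 on both scales, and relative to the median on log2(TPM + 0.1) at -0.44, -0.51, -0.40 and -0.43, beside -1.12, -0.69, -0.56 and -0.42 by edgeR. The log2 fold change of Gstp1, at a mean TPM of 34.0, turned to 0.12 and 0.13, the latter -0.18 relative to the median. That difference depends on the added constant, which moved the median (0.12 and 0.30) more than Gstp1. The mean TPM of Cyp2u1, Ugt1a7c, Cyp1b1 and Sult1c2 over all samples was 0.033, 0.288, 0.316 and 0.499, below the added constant of 1. A constant above the level of a gene shrinks its fold change, so a call lost on log2(TPM + 1) cannot test these genes. In the edgeR fit without Ad-hHIF2 replicate 1, the library shifted in TPM, 4 members were higher and 6 lower. Because these are bulk samples, fewer cells of a type and less RNA per cell cannot be told apart.

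Ad-hHIF1 changed none of the 33 genes tested against Ad-GFP, and none of the 15233 genes of the whole table (0.0%) passed. At an unadjusted p below 0.05 by edgeR there were 5 of 33 members, beside 8.59% of all genes, and the groups did not overlap in 7 of 33, beside 17.4%. DESeq2 called 144 genes in this comparison, 1 of them a member, Ugt2b34, and edgeR without a filter on low counts called 384, among them Ugt1a6a, Ugt1a7c and Ugt2b34. Compared directly, Ad-hHIF2 differed from Ad-hHIF1 in 9 of 35 genes, 25.7% beside 25.8% of all 15556 genes, of which 3 were higher and 6 lower, beside 2137 higher and 1871 lower over all genes. Both comparisons with Ad-GFP use the same 3 control samples.

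**Figure D2:**
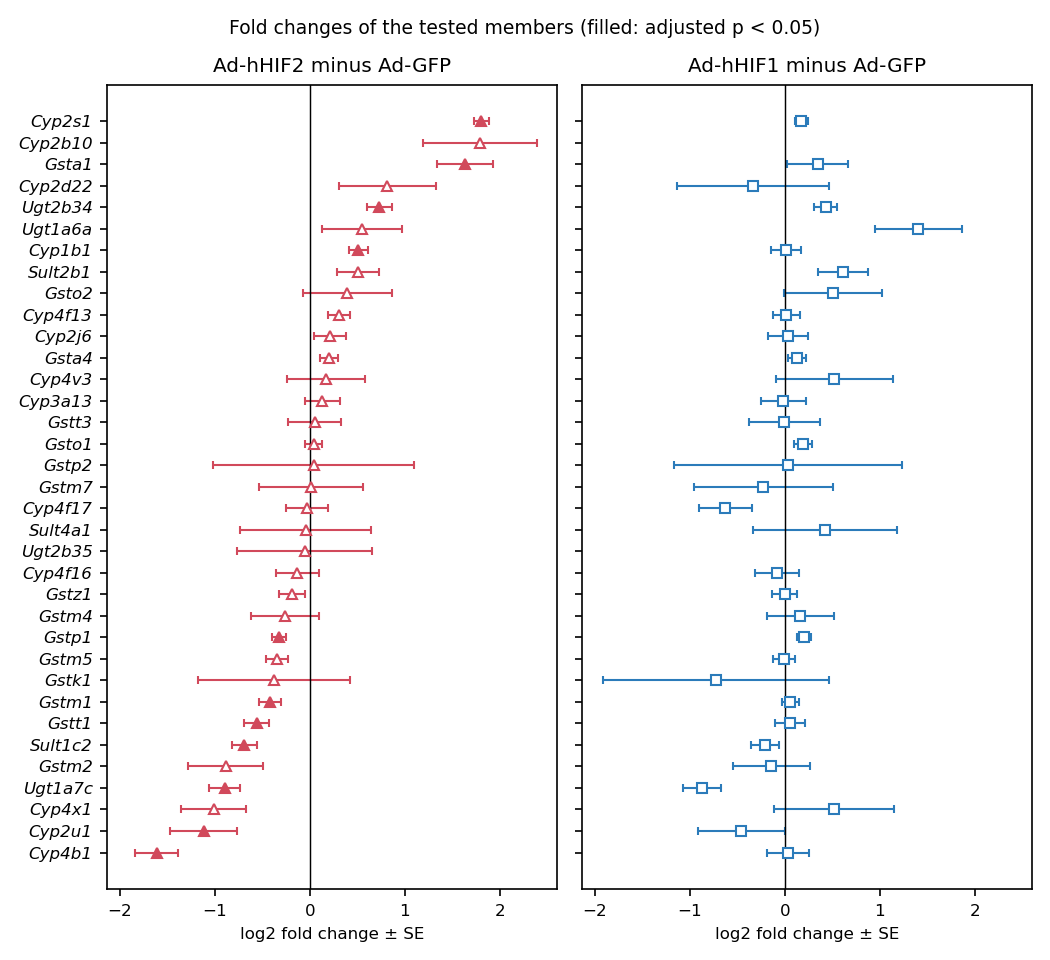
Log2 fold change with its standard error for the genes tested in Ad-hHIF2 against Ad-GFP (left), and for the same genes in Ad-hHIF1 against Ad-GFP (right), fitted on 3 samples a group, with filled symbols where the adjusted p was below 0.05. The left panel holds 4 filled symbols above 0 and 7 below it, and the right panel holds none.

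Cyp2s1, a P450 of epithelial tissues outside the liver, showed the clearest change of the CYP genes. It was at 134, 130.2 and 135 CPM in Ad-GFP, 499, 442 and 454 in Ad-hHIF2 and 152, 153 and 146 in Ad-hHIF1. All 3 Ad-hHIF2 samples lay far above the other 6, while the Ad-hHIF1 samples were only slightly above those of Ad-GFP. The rise with HIF2 was 3.50-fold (log2 1.81 ± 0.0806 SE, adjusted p = 1.90e-06) and it was called under all 14 alternative settings run for it. Against Ad-hHIF1 directly the log2 difference was 1.63 ± 0.0740 (adjusted p = 3.33e-07), and HIF1 against GFP gave 0.18 ± 0.0694 (adjusted p = 0.573). Per kilobase, its level went from 50.9 CPM in Ad-GFP to 178 in Ad-hHIF2, beside 57.6 in Ad-hHIF1. The gene lies at chr7:25802475-25816913 (GRCm38, minus strand) and none of its 50-base windows is shared with another gene. Its exons overlap the antisense gene Gm26707, whose reads cannot be separated from it unless counting used strand, which the sources do not state. The same limit applies to Cyp2u1, Cyp4x1, Gstm5, Gstz1, Sult1a1, Sult2b1 and the Ugt1a genes, whose exons also overlap antisense genes.

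Cyp1b1, which oxidises polycyclic hydrocarbons and oestradiol and is a target of AHR, rose by a smaller amount. It was at 9.18, 8.81 and 9.70 CPM in Ad-GFP, 13.7, 13.4 and 12.1 in Ad-hHIF2 and 10.6, 7.36 and 9.87 in Ad-hHIF1. The Ad-hHIF2 samples lay above all others and the remaining groups overlapped. The log2 fold change was 0.51 ± 0.0975 (adjusted p = 0.00519) against Ad-GFP and 0.49 ± 0.132 (adjusted p = 0.0214) against Ad-hHIF1, and the second call was lost without Ad-hHIF2 replicate 1 (adjusted p = 0.0811) or 3 (0.0819). The gene lies at chr17:79701537-79715061.

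Cyp4b1, a P450 that turns the furan toxin ipomeanol into its reactive form, fell. Its values were 4.78, 4.32 and 3.45 CPM in Ad-GFP, 1.17, 1.49 and 1.46 in Ad-hHIF2 and 3.69, 5.30 and 3.91 in Ad-hHIF1. Ad-hHIF2 was below both other groups in every sample, and those overlapped. The log2 fold change was -1.61 ± 0.227 (adjusted p = 0.00116) against Ad-GFP and -1.64 ± 0.227 (adjusted p = 5.36e-04) against Ad-hHIF1 (chr4:115624725-115647723). Cyp2u1, which hydroxylates long-chain fatty acids, fell from 1.20, 1.08 and 1.60 CPM to 0.686, 0.471 and 0.614 in Ad-hHIF2 (log2 -1.12 ± 0.355, adjusted p = 0.0444), with 0.815, 1.45 and 0.588 in Ad-hHIF1. This call was the weakest of the 11 and was lost in each of the 6 fits that left out a sample (adjusted p 0.0750 to 0.152).

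The other CYP genes did not pass in any comparison. Cyp3a13, the intestinal CYP3A form of the mouse, was at 13.96, 14.8 and 8.40 CPM in Ad-GFP, 12.5, 14.9 and 13.6 in Ad-hHIF2 and 12.6, 9.37 and 14.9 in Ad-hHIF1, with all groups overlapping. Cyp4x1, a member of the CYP4 family, was at 2.35, 3.99 and 3.299 CPM in Ad-GFP and 0.983, 1.55 and 2.26 in Ad-hHIF2 (log2 -1.01 ± 0.344, adjusted p = 0.0553), and was called in 6 of 14 alternatives. In Ad-hHIF1 it was at 2.36, 10.03 and 1.66 CPM, so that replicate 3, the library rich in satellite reads, stood above every other sample. Cyp2b10, the phenobarbital-inducible gene controlled by the receptor CAR and also chosen after its values were seen, was at 0.164, 0.111 and 0.350 CPM in Ad-GFP and 0.755, 0.903 and 0.356 in Ad-hHIF2. These are 6, 4 and 7 counts in Ad-GFP and 33, 46 and 11 in Ad-hHIF2. It entered the test through the group where it was high, so its fold change is not given. Cyp4f17 was at 2.51, 2.30 and 2.799 CPM in Ad-GFP and 1.77, 1.27 and 1.84 in Ad-hHIF1 (log2 -0.63 ± 0.278, adjusted p = 0.588). Cyp4f13 and Cyp4f16, of a group that hydroxylates fatty acids and leukotrienes, did not pass either, with log2 fold changes of 0.30 ± 0.117 and -0.13 ± 0.227 for HIF2. Without Cyp2s1, the summed level of the CYP genes was 59.7 ± 1.61 CPM (SD, n = 3) in Ad-GFP, 62.1 ± 1.45 in Ad-hHIF2 and 59.97 ± 4.29 in Ad-hHIF1, so nearly all of the class difference lay in 1 gene. With it, the sums were 192.8 ± 1.58, 526.9 ± 29.3 and 210.4 ± 5.86 CPM.

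**Figure D3:**
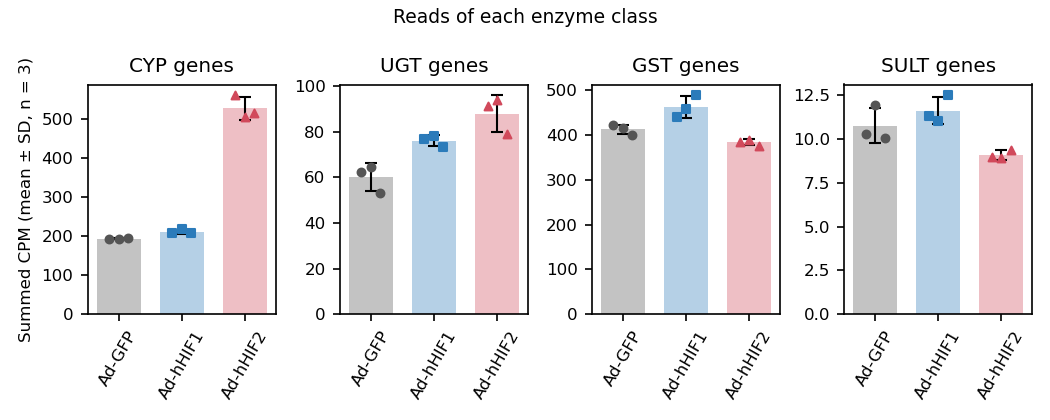
Summed CPM of all genes of each class, with bars at the mean, error bars of 1 SD (n = 3) and 1 point per sample, on axes that start at 0. The CYP sums of Ad-hHIF2 lie above 500 CPM and those of the other groups below 220, while the GST sums of Ad-hHIF2 are below and those of Ad-hHIF1 above all 3 Ad-GFP samples.

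The 9 Ugt1a genes in the tables are made from 1 locus, in which each has a first exon of its own that is joined to the same 4 later exons, so a read from the shared part cannot be assigned by its sequence. Ugt1a7c and Ugt1a6a, the 2 Ugt1a genes that passed the filter, are shown at the border between the exons (GENCODE M21, GRCm38, plus strand): lower case marks the last 30 bases of the first exon, at chr1:88095949-88095978 and chr1:88139302-88139331, and capitals the first 30 of the shared second exon, at chr1:88215044-88215073. The last 737 of their 1593 coding bases are identical.
Ugt1a7c: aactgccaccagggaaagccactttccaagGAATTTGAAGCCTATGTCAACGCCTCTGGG
Ugt1a6a: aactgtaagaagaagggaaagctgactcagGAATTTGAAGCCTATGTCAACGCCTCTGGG

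Of the UGT genes, Ugt2b34 and Ugt1a7c changed with HIF2, in opposite directions. Ugt2b34, of the UGT2B family that glucuronidates steroids and drugs, was at 52.5, 52.9 and 38.4 CPM in Ad-GFP, 82.4, 85.6 and 70.3 in Ad-hHIF2 and 64.6, 66.3 and 63.2 in Ad-hHIF1. The 3 groups did not overlap, with Ad-hHIF1 between the others. The rise with HIF2 was log2 0.73 ± 0.130 (adjusted p = 0.00373), and the HIF1 value was 0.43 ± 0.121, which edgeR did not call (adjusted p = 0.491) and DESeq2 did. Directly compared, the HIFs differed by 0.30 ± 0.121 (adjusted p = 0.102), which did not pass, although it was called in 3 of 17 alternatives: without a filter on low counts (adjusted p = 0.0158), on only the 6 samples of both HIFs, and without Ad-GFP replicate 4. It lies at chr5:86889767-86906937.

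Ugt1a7c was at 8.47, 7.90 and 11.5 CPM in Ad-GFP, 5.14, 5.14 and 4.53 in Ad-hHIF2 and 4.71, 4.38 and 6.03 in Ad-hHIF1. Both HIF groups lay below every Ad-GFP sample. With HIF2 it fell by log2 0.90 ± 0.165 (adjusted p = 0.00432), and the HIF1 samples gave a similar value, -0.87 ± 0.202, that did not pass (adjusted p = 0.486). Ugt1a6a, the isoform known for small planar phenols, was at 0.874, 3.16 and 1.80 CPM in Ad-GFP, 2.29, 2.67 and 3.59 in Ad-hHIF2 and 6.69, 5.56 and 3.299 in Ad-hHIF1 (log2 1.41 ± 0.462 for HIF1, adjusted p = 0.517). Its Ad-hHIF1 samples were all above those of Ad-GFP, the reverse of Ugt1a7c. Summed over the 9 Ugt1a genes, an alternative chosen after seeing the data that does not depend on how shared reads were divided, the level was 9.56, 11.3 and 13.7 CPM in Ad-GFP, 8.39, 7.85 and 8.28 in Ad-hHIF2, and 11.9, 10.9 and 10.1 in Ad-hHIF1. The sum fell with HIF2 (log2 -0.49 ± 0.138, adjusted p = 0.0293) and was -0.07 ± 0.152 with HIF1 (adjusted p = 0.908). About 53.7% of the 50-base windows of Ugt1a7c and 52.1% of those of Ugt1a6a are shared with other genes, so the values of each alone are uncertain.

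**Figure D4:**
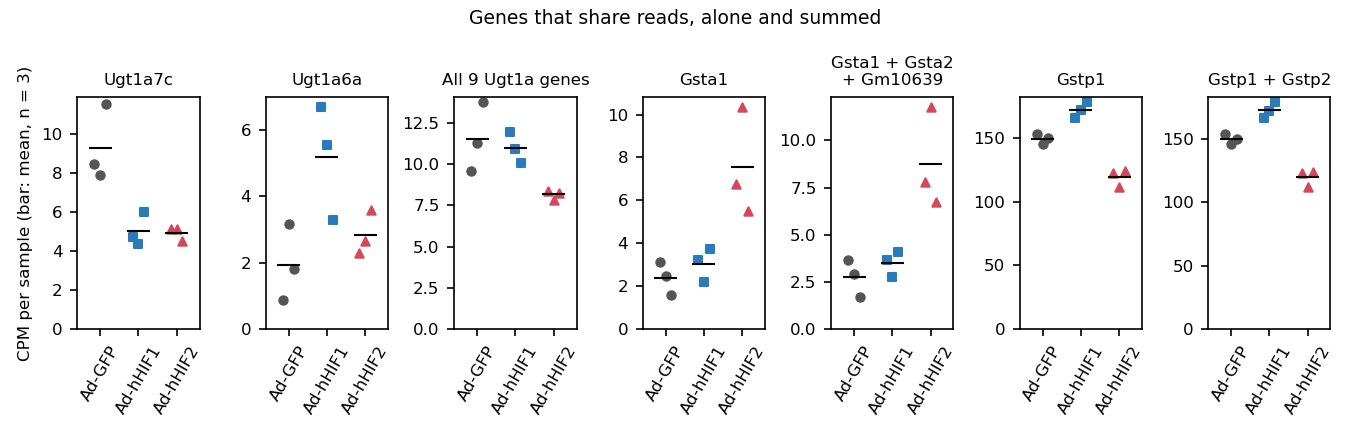
CPM per sample for genes that share reads, alone and summed with near-identical genes (Gm3776, a further copy of Gsta1, was not analysed here), with a bar at the mean of 3 samples and axes that start at 0. Ugt1a7c is low in both HIF groups, but the sum over the Ugt1a locus is low in Ad-hHIF2 only, and for Gsta1 and Gstp1 the gene alone and the sum show the same order of groups.

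Of the GST genes, only Gsta1 rose with HIF2, and Gstt1, Gstm1 and Gstp1 fell. Gsta1 and Gstp1 have near-identical neighbours with which reads can be shared, and their coding sequences are shown for that reason. Gsta1 and Gsta2 differ in 13 of the 666 coding bases compared and Gstp1 and Gstp2 in 12 of 630. Coding bases 449 to 508 of the alpha pair (exon 6, chr9:78241561-78241620 on the plus strand and chr9:78332125-78332184 on the minus strand) and 271 to 330 of the pi pair (exon 5, chr19:4036694-4036753 and chr19:4040988-4041047, both on the minus strand) each hold 5 of the differences, marked in capitals (GENCODE M21, GRCm38).
Gsta1: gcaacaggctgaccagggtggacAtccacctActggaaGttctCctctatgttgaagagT
Gsta2: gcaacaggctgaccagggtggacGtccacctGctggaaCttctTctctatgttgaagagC
Gstp1: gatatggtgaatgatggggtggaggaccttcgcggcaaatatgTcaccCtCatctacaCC
Gstp2: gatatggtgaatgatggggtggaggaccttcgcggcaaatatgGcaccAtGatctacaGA

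Gsta1, an alpha class transferase that conjugates lipid peroxidation products and drugs, was at 3.12, 2.47 and 1.60 CPM in Ad-GFP, 6.75, 10.4 and 5.50 in Ad-hHIF2 and 3.23, 2.19 and 3.73 in Ad-hHIF1. Every Ad-hHIF2 sample was above all others, although the group also had the widest spread. The log2 fold change was 1.63 ± 0.293 (adjusted p = 0.00388) against Ad-GFP and 1.30 ± 0.306 (adjusted p = 0.0115) against Ad-hHIF1, and the latter was lost without Ad-hHIF2 replicate 3, the highest sample (adjusted p = 0.0594). Because 90.5% of its 50-base windows occur in other genes, it was also summed with Gsta2 and Gm10639, while a further near-identical gene, Gm3776, was not analysed here. The sum was 3.69, 2.91 and 1.70 CPM in Ad-GFP and 7.77, 11.8 and 6.73 in Ad-hHIF2 (log2 1.64 ± 0.289, adjusted p = 0.00358). Gsta4, which clears the lipid aldehyde hydroxynonenal, was at 38.7, 35.8 and 42.3 CPM in Ad-GFP and 40.0, 46.7 and 47.3 in Ad-hHIF2 and did not pass (log2 0.20 ± 0.0965, adjusted p = 0.147).

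Gstp1, the pi class transferase and by length the most abundant gene of all 134, was the 1 tested gene of the 4 classes whose Ad-hHIF2 samples all lay below, and Ad-hHIF1 samples all above, those of Ad-GFP. It was at 153, 145 and 150.01 CPM in Ad-GFP, 123, 111 and 124 in Ad-hHIF2 and 166, 172 and 178 in Ad-hHIF1. No sample of a group lay within the range of another. The fall with HIF2 was small (log2 -0.32 ± 0.0753, adjusted p = 0.0130), and its call was lost without Ad-hHIF2 replicate 3 (adjusted p = 0.0564). On the 2 TPM scales the log2 fold change read 0.12 and 0.13, or 0.00 and -0.18 relative to the median of all genes (0.12 and 0.30). That median moved with the added constant and Gstp1, at a mean TPM of 34.0, hardly did, so these differences depend on the constant. Without a constant, the median expressed gene lay at 0.81, -0.08 and -0.03 in Ad-hHIF2 and -0.23, -0.12 and -0.23 in Ad-GFP, in log2 TPM relative to the mean of all libraries. With HIF1 the value was 0.20 ± 0.0736, which did not pass (adjusted p = 0.534), and the direct comparison of HIF2 with HIF1 gave -0.53 ± 0.0714 (adjusted p = 4.55e-04). Summed with Gstp2, the 3 values were -0.32, 0.20 and -0.53.

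Gstt1, a theta class enzyme that acts on small halogenated compounds, was at 6.94, 7.76 and 6.598 CPM in Ad-GFP, 4.78, 5.12 and 4.50 in Ad-hHIF2 and 6.23, 7.44 and 8.49 in Ad-hHIF1. The Ad-hHIF2 samples were below all others (log2 -0.56 ± 0.129, adjusted p = 0.0122; 0.0505 without Ad-GFP replicate 3). Gstm1, the main mu class enzyme of the mouse, was at 19.6, 21.1 and 17.7 CPM in Ad-GFP, 16.1, 12.3 and 15.2 in Ad-hHIF2 and 20.6, 21.1 and 19.4 in Ad-hHIF1, and again all Ad-hHIF2 samples were below the others (log2 -0.42 ± 0.115, adjusted p = 0.0246). Its call against Ad-GFP held in 2 of the 6 fits that left out a sample (adjusted p up to 0.0916). Against Ad-hHIF1 the log2 differences were -0.62 ± 0.146 for Gstt1 (adjusted p = 0.0111) and -0.48 ± 0.110 for Gstm1 (adjusted p = 0.00924). Gstm5 was also lower with HIF2 than with HIF1 (-0.34 ± 0.110, adjusted p = 0.0458) at 17.6, 17.2 and 14.9 against 19.5, 21.3 and 22.1 CPM. This call was lost in 7 of the 9 fits that left out a sample (adjusted p 0.0517 to 0.167). Against Ad-GFP the gene missed the threshold (adjusted p = 0.0530) and stayed uncalled in 9 of 14 alternatives, with DESeq2 among those that called it. Gsto1, an omega class enzyme that reduces dehydroascorbate, was among the most abundant genes and overlapped between Ad-GFP (161, 165 and 142 CPM) and Ad-hHIF2 (162, 172 and 148 CPM), while the Ad-hHIF1 samples lay above those of Ad-GFP (169, 172 and 193 CPM) without passing (adjusted p = 0.612). Gstz1, which acts in tyrosine breakdown, overlapped in the same way (log2 -0.19 ± 0.133, adjusted p = 0.324). The GST sums were 412.1 ± 10.5 CPM in Ad-GFP, 383.3 ± 6.82 in Ad-hHIF2 and 462.1 ± 24.0 in Ad-hHIF1 (SD, n = 3), whereas in TPM the Ad-hHIF2 samples gave 116.9, 63.6 and 64.5 beside 63.4, 66.3 and 60.5 in Ad-GFP, so the lower sum of Ad-hHIF2 did not hold on that scale.

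Among the SULT genes only Sult1c2 changed. This phenol sulfotransferase was at 7.13, 7.84 and 7.05 CPM in Ad-GFP, 4.21, 4.45 and 4.98 in Ad-hHIF2 and 5.73, 6.09 and 7.21 in Ad-hHIF1. Ad-hHIF2 lay below every other sample, and the other groups overlapped. It fell by log2 0.69 ± 0.131 against Ad-GFP (adjusted p = 0.00505) and by 0.48 ± 0.139 against Ad-hHIF1 (adjusted p = 0.0280), the latter lost without Ad-hHIF2 replicate 1 (0.112) or 3 (0.0746) or Ad-hHIF1 replicate 4 (0.105). Sult2b1, which sulfates cholesterol and related sterols, was at 1.86, 2.799 and 2.45 CPM in Ad-GFP, 3.59, 3.08 and 3.40 in Ad-hHIF2 and 3.90, 2.76 and 4.17 in Ad-hHIF1 and passed in no comparison (adjusted p = 0.114 with HIF2, 0.581 with HIF1). Sult1c2 took 68.3% of the SULT reads in Ad-GFP, 50.1% in Ad-hHIF2 and 54.7% in Ad-hHIF1.

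The promoters of the 134 genes were searched for ACGTG and GCGTG, the core letters of the hypoxia response element, in the 250 bases before the start of the gene and on both strands. GCGTG is also the core that AHR with ARNT recognises. RefSeq windows (GRCm38.p6) were at hand for 114 members, of which 26 held a match, beside 41.5% of the 27025 genes in the table. Among the tested members with a window, 11 of 29 held one. Of the genes that changed with HIF2, 1 of 4 higher ones (Cyp1b1) and 2 of 6 lower ones with a window (Gstp1 and Gstm1) held a match. These letters were not in the windows of Cyp2s1, Gsta1, Ugt2b34, Cyp4b1, Ugt1a7c, Sult1c2 and Gstt1. Each sequence below runs in the direction of its gene, all on the minus strand, with the match in capitals, and is shown because its gene changed with HIF2: Cyp1b1 at chr17:79715120-79715149, 76 bases before the start and read on the opposite strand, 80 and 13 bases before the start of Gstp1 at chr19:4037975-4038004 and chr19:4037913-4037942, and, for the start of Gstm1 whose window holds both, 50 bases (opposite strand) and 231 bases before it (the latter is 76 bases before the other RefSeq start) at chr3:108017851-108017880 and chr3:108018032-108018061.
Cyp1b1: cgtcccgcccctCACGCcccaccccctaag
Gstp1, ACGTG: cttctctctccaACGTGttgagtcagcatc
Gstp1, GCGTG: gcggcccggtggcctacGCGTGcgtcctca
Gstm1, ACGTG: ttttgtcctgccCACGTttctctagtagtc
Gstm1, GCGTG: gattctgtttcaGCGTGtgcaaaacagaat

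Other genes of drug metabolism were read from the same fits in 4 lists: regulators, cofactor supply, export, and other enzymes. Of 21 tested regulators, 7 rose and 3 fell with HIF2, with a median log2 fold change of 0.16, beside 15.9% higher and 13.6% lower over all genes. Ahr rose from 42.2, 40.1 and 42.4 CPM in Ad-GFP to 72.9, 69.9 and 65.2 in Ad-hHIF2 (log2 0.74 ± 0.0710, adjusted p = 1.46e-04), a call that missed the threshold on log2(TPM + 1) (adjusted p = 0.0571). Tiparp, an AHR target that represses AHR, rose from 97.1, 98.9 and 93.3 to 267, 269 and 244 CPM (log2 1.44 ± 0.0761, adjusted p = 5.11e-06). Both were higher with HIF2, while Cyp1a1, as given above, had at most 6 counts in an Ad-hHIF2 sample. Nr1h4, the bile acid receptor FXR, rose from 1.09, 0.998 and 1.15 to 4.94, 5.18 and 4.56 CPM (log2 2.19 ± 0.196, adjusted p = 1.03e-04). Ppargc1a, a coactivator of oxidative metabolism, fell from 8.36, 7.59 and 6.998 to 3.13, 2.98 and 2.43 CPM (-1.42 ± 0.155, adjusted p = 2.95e-04). The xenobiotic receptor genes Nr1i2 (PXR) and Nr1i3 (CAR), named here after their values were seen, were at most at 1.02 and 0.600 CPM in a sample.

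Cofactor genes split, with 5 of 20 higher, 6 lower and a median of -0.02, beside 15.9% higher and 13.6% lower over all genes. Those that rose included the enzymes that make UDP-glucuronic acid, the sugar donor of UGTs: Ugdh was at 385, 380.3 and 336 CPM in Ad-GFP and 873, 864 and 800.1 in Ad-hHIF2 (log2 1.21 ± 0.0877, adjusted p = 3.23e-05), and Ugp2 at 16.6, 19.4 and 17.5 and 27.0, 28.4 and 28.8 (0.66 ± 0.0812, adjusted p = 5.74e-04). Those that fell included Gclc, which limits the rate of glutathione synthesis, at 23.5, 25.5 and 26.8 CPM in Ad-GFP, 9.58, 8.48 and 8.25 in Ad-hHIF2 and 30.2, 31.4 and 30.3 in Ad-hHIF1 (-1.52 ± 0.0940, adjusted p = 1.29e-05). Hmox1, the heme-degrading enzyme, was at 342, 338 and 314 CPM in Ad-GFP, 90.9, 80.0 and 77.7 in Ad-hHIF2 and 497, 462 and 532 in Ad-hHIF1. It fell with HIF2 (log2 -1.99 ± 0.0872, adjusted p = 1.66e-06), while the HIF1 samples all lay above the control (log2 0.59 ± 0.0870), which edgeR did not call (adjusted p = 0.207) and DESeq2 (1.25e-11) and edgeR without a filter on low counts did.

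Of 7 tested export genes, 1 rose and 5 fell with HIF2 (median -0.44), beside 15.9% and 13.6% of all genes. Abcc3, which exports glucuronides across the basolateral membrane, rose from 62.1, 58.5 and 63.3 to 129, 128 and 124 CPM (log2 1.06 ± 0.0706, adjusted p = 1.94e-05). The P-glycoprotein genes fell, Abcb1a from 30.8, 32.0 and 31.3 to 16.8, 15.3 and 15.9 CPM (-0.97 ± 0.0696, adjusted p = 3.10e-05) and Abcb1b from 12.5, 14.9 and 14.6 to 6.72, 5.96 and 6.57 (-1.12 ± 0.111, adjusted p = 1.72e-04), and so did Abcc1, an exporter of glutathione conjugates, from 138, 127 and 133 to 88.3, 84.3 and 82.4 (-0.64 ± 0.0720, adjusted p = 3.56e-04). Of 41 tested other enzymes, 4 rose and 10 fell (median -0.21), again beside 15.9% and 13.6% of all genes. Ephx1, microsomal epoxide hydrolase, which acts on epoxides made by CYPs, showed the largest rise of that list, from 16.7, 15.7 and 19.7 CPM to 106, 91.7 and 98.4 with HIF2 beside 20.9, 22.2 and 21.6 with HIF1 (log2 2.51 ± 0.104, adjusted p = 1.26e-06). Cbr1, a carbonyl reductase, rose by log2 0.85 ± 0.150 (adjusted p = 0.00363). The aldo-keto reductases Akr1c19 and Akr1c12 fell by 1.20 ± 0.154 and 0.49 ± 0.0921 on the log2 scale (adjusted p = 7.00e-04 and 0.00504). None of the tested genes of the 4 lists passed with HIF1 in the filtered edgeR fit, whereas edgeR without a filter called Hmox1 and, of those named here, DESeq2 called Hmox1 and Tiparp (adjusted p = 0.0115 for Tiparp). On the TPM scales, the calls of Ppargc1a, Gclc, Abcb1a, Abcb1b, Abcc1, Ugp2, Akr1c19 and Akr1c12 with HIF2 were lost. Their sign was kept, but on log2(TPM + 1) the log2 fold change of Akr1c12 was -0.01, that of Ppargc1a -0.15, that of Akr1c19 -0.25 and that of Gclc -0.40, beside a median of 0.12 over all genes. An added constant of 1 shrinks the fold changes of genes at low TPM, which limits how these values can be read. Over all alternatives, the log2 fold change of Ugp2 was 0.61 to 0.95, and the weakest values of Abcb1a, Abcb1b and Abcc1 were -0.36, -0.40 and -0.38. The calls of Tiparp, Nr1h4, Hmox1, Ugdh, Abcc3, Ephx1 and Cbr1 held on both scales.

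**Figure D5:**
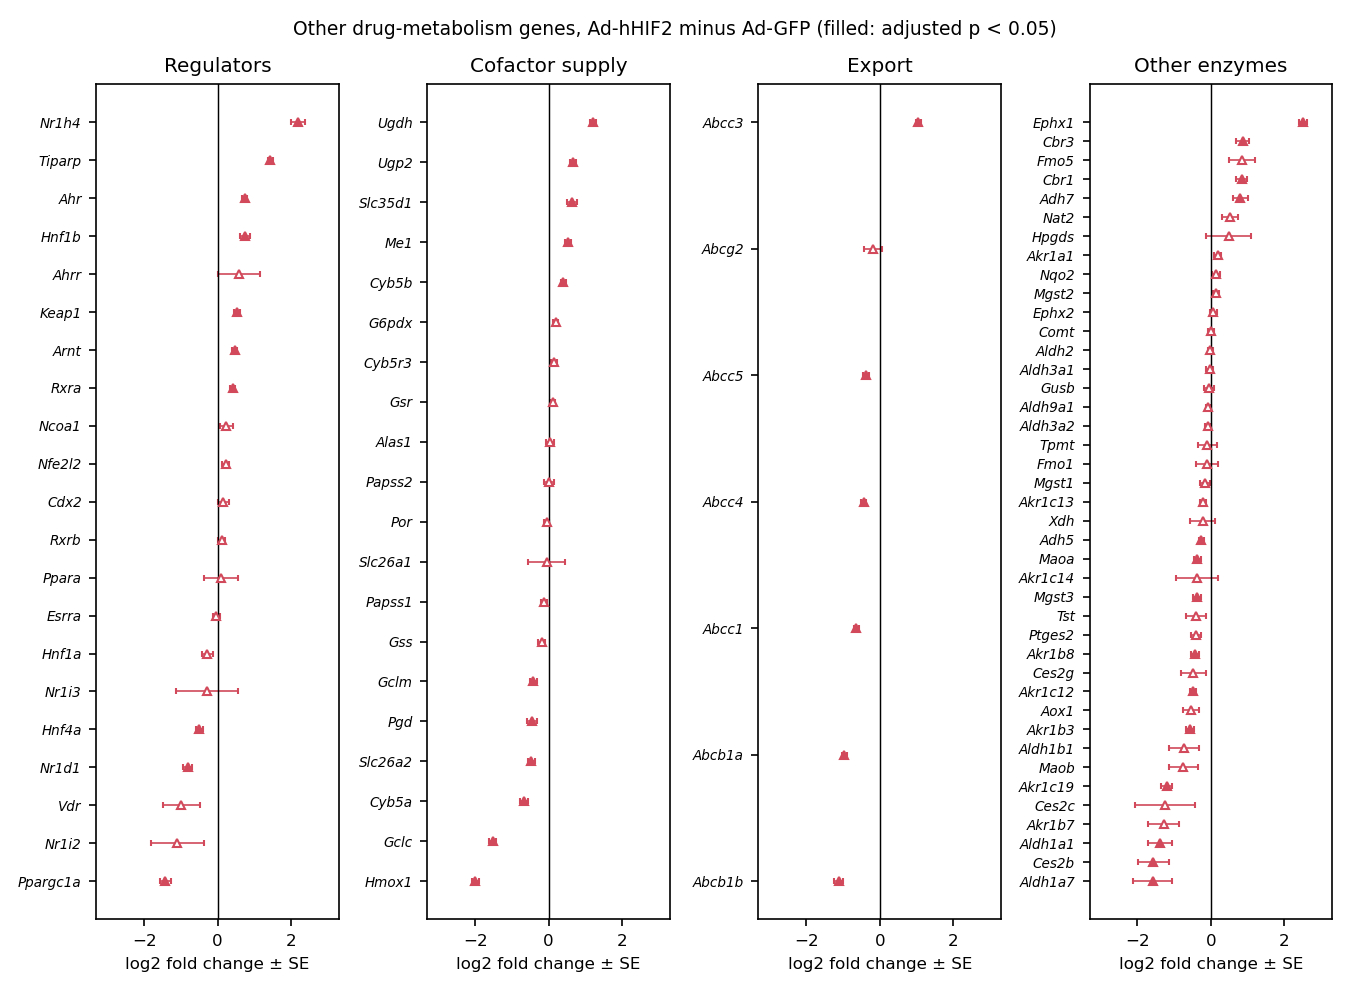
Log2 fold change with its standard error in Ad-hHIF2 against Ad-GFP (3 samples a group) for the tested genes of 4 lists of drug metabolism, filled where the adjusted p was below 0.05. Filled symbols lie on both sides of 0 in every list, with 1 above it, Abcc3, among the exporters.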

How the data were processed

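RNA of 9 organoid samples, 3 per group, was sequenced. Per the study's methods, reads of low quality were discarded and gene abundance was estimated with RSEM by the authors. The deposited tables hold expected counts, TPM, FPKM and transcript lengths per gene and sample. The RSEM version, aligner, genome build and use of strand are not given in the sources used here. The authors' expected counts, 85.7% of them whole within 0.001, were rounded. Depth is given with the results. The deposited FPKM values were not used, and the deposited TPM values served as an alternative scale and for a threshold of expression.

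Genes were filtered with filterByExpr, scaled with TMM factors and compared by the quasi-likelihood method of edgeR (version 4.0.16, R 4.3.3), with Benjamini-Hochberg adjustment over all genes tested and a threshold of 0.05. Each HIF was compared with Ad-GFP on those 6 samples, and HIF2 with HIF1 on all 9. The test code was checked on simulated data. Alternatives were DESeq2 1.42.0, limma 3.58.1 on log2(TPM + 1) and log2(TPM + 0.1), other filters and scalings, a 2-fold threshold, a replicate block and leaving out each sample. Genes named are those called in a comparison, the 15 with the highest mean TPM, the 3 largest changes per comparison among genes of at least 1 CPM, up to 4 per pathway list by adjusted p, both transgene checks and a list of well known inducible genes. The members and lists were chosen with earlier results of these data known. The replicates are described as biological, but whether they came from separate mice was not given in the labels, so p-values measure the spread between these samples. Positions and transcript sequences are from GENCODE M21 (GRCm38), which matched 46005 of 46517 gene identifiers, and promoters from RefSeq (GRCm38.p6).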

Additional observations from a re-analysis of the deposited data

Results flagged for a closer look

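Gstp1 stood out because its groups lay on opposite sides of the control: all 3 Ad-hHIF2 samples were below and all 3 Ad-hHIF1 samples above those of Ad-GFP. The direct comparison of HIF2 with HIF1 by edgeR gave a log2 difference of -0.53 (adjusted p = 4.55e-04), with a value of -0.32 for HIF2 and 0.20 for HIF1 against Ad-GFP, the latter not past the threshold. The direct call held in the 9 fits that left out a sample and was lost on both TPM scales. There the log2 difference was -0.27 and -0.28, or -0.34 and -0.45 relative to the median of all genes. These last 2 values depend on the constant added to TPM, since the median moved with it (0.06 and 0.17) and Gstp1 hardly did.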

How the results depend on the processing

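The number of members called expressed, 35, became 10 with a mean TPM of 1 in a group and 102 with any count. For HIF2 against GFP, the 4 higher and 7 lower members became 2 and 2 with a 2-fold threshold. DESeq2 called 14 members in place of 11. With at least 10 counts in every sample 13 were called, and without a filter on low counts also 13. With limma, 1 lower member was left on log2(TPM + 1) and 0 on log2(TPM + 0.1), scales on which the added constant shrinks fold changes at low TPM. Leaving out 1 sample gave 4 to 5 higher and 4 to 7 lower members, with 4 lower without Ad-GFP replicate 3 or Ad-hHIF2 replicate 3. For HIF1 against GFP, 0 members were called in each fit that left out a sample, 2 higher and 1 lower without a filter on low counts, and 1 higher by DESeq2. For HIF2 against HIF1, the 3 higher and 6 lower members became 2 higher and 1 lower with a 2-fold threshold. On each TPM scale they became 2 higher and 0 lower. Without a filter on low counts 12 members were called in place of 9. Leaving out 1 sample gave 1 to 4 higher, with 1 without Ad-hHIF2 replicate 3, and 4 to 6 lower. Over all genes, limma on log2(TPM + 1) and log2(TPM + 0.1) called 1010 and 1109 genes for HIF2 against GFP in place of 4416, and 367 and 460 for HIF2 against HIF1 in place of 4008, where the share higher went from 53.3% to 85.8% and 82.8%. The fold change of Gstp1 with HIF2 went from -0.32 to 0.12 and 0.13 on those scales. Relative to the median of all genes there it was 0.00 and -0.18, a difference that depends on the constant added to TPM. The fold change of Ugt1a6a went from 0.55 to -0.49 when the reads of near-identical genes were summed, which replaces it by the whole locus. The cause of the moves on the TPM scales was not tested. The test changed along with the scale, and no fit on TPM left out the shifted library Ad-hHIF2 replicate 1. Of 312 values of called members under alternatives, 310 kept their direction and 253 also their call. Depth limits the 58 genes with at most 3 counts in every sample.

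Same-numbered samples did not deviate together (r between -0.194 and 0.134, 1 of 9 pairs above 0.1), so the numbers were not taken to pair the samples. With a replicate block, 4 higher and 7 lower members were called for HIF2 against GFP, 0 and 0 for HIF1 against GFP, and 3 and 5 for HIF2 against HIF1. In the first of these Cyp2u1 was lost and Cyp4x1 gained, and in the last Gstm5 was lost. The block called 4631, 0 and 3638 genes over the whole table.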
